A study of Rattus norvegicus with 18 samples.

Results

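The eye muscles of control rats were set against a fast limb muscle. The 6 arrays described here are the 3 arrays of extraocular muscle (EOM) and the 3 arrays of extensor digitorum longus (EDL) that carry the control label, out of 18 arrays of the series. They were chosen by label alone. The animals were female Lewis rats, 6 to 8 weeks old at the start, given complete Freund's adjuvant with added non-viable mycobacteria but no acetylcholine receptor (AChR), so that control here means adjuvant-treated and not naive. The muscles were taken 6 weeks later. The other 12 arrays held EOM and EDL of rats immunised with AChR to induce experimental autoimmune myasthenia gravis (EAMG), and the diaphragm (DIA) of both kinds of rat. The EOM arrays were made from the rectus muscles, and the RNA of each array was pooled from several rats. Each group had 3 arrays.

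Extraocular muscles turn the eye and are active almost without pause. They come from head mesoderm, whereas limb muscles come from the somites, and they keep myosins and an AChR subunit that limb muscle loses after birth. They hold fibres innervated at many points along their length beside fibres with 1 endplate, and their fibres are thin and rich in vessels and nerve. The EDL lifts the toes and consists almost wholly of fast fibres that run on glycogen and glycolysis.

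The values are Affymetrix signals, brightness on a linear scale with each array scaled to the same trimmed mean. A probe set entered the test if its signal reached 400, the study's own minimum and 5 times background, on at least 1 of the 6 arrays. That left 11077 of 31042 probe sets, and 7200 genes when each gene was given by its brightest probe set with 1 symbol. Differences are log2 EOM minus log2 EDL, tested with limma and adjusted by the Benjamini-Hochberg method over all 11077 probe sets. A gene is called higher or lower in EOM at an adjusted p under 0.05. The p-values measure the spread between these pools of rats. Levels are compared between muscles for the same probe set and never between genes.

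The median signal of an array was 156 ± 6.49 in EOM and 139 ± 2.13 in EDL (SD, n = 3 each). RNA integrity was read from GAPDH as 3′ over 5′ signal, which was 1.20 ± 0.00611 in EOM and 1.14 ± 0.0830 in EDL (SD, n = 3 each, exact two-sided permutation test, p = 0.4, where 3 against 3 arrays cannot go below 0.1). Log2 signals correlated at 0.978 to 0.984 among EOM arrays and at 0.953 to 0.983 among EDL arrays. EDL control 3 stood somewhat apart from the other EDL arrays, and list counts that moved by over 1.5 times without it are given beside them. Genes that mark skeletal muscle fibres were bright in both muscles, with a summed signal of 284958 to 309629 over 13 genes in EOM and 362450 to 451434 in EDL.

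EOM and EDL differed in 47.5% of the genes tested. Of 7200 genes, 1938 were higher in EOM (26.9%) and 1483 were lower (20.6%). Every count of a gene list below is to be read beside these shares. Of the 11077 probe sets, 24.4% were higher and 21.4% lower (45.8% in either direction), and the groups did not overlap in 58.8%. Most differences were modest. Of the genes called, 638 were at least 2-fold higher and 333 at least 2-fold lower, 50 were at least 8-fold higher and 10 at least 8-fold lower, and 25 were at least 16-fold higher against 6 at least 16-fold lower. The larger differences were thus more often toward EOM. The filter fixed the direction of some of these genes, since 627 of the 1938 higher genes reached 400 in EOM alone and 214 of the 1483 lower genes reached it in EDL alone. Of the 10 genes that led the higher direction, with 100 added to each signal, only Myh3 and Fxyd6 reached 400 in both muscles. EOM and EDL arrays did not overlap in 62.0% of the genes tested. When each array was set to the same median signal, 36.2% of the probe sets called were higher, against 53.4% as deposited, so the balance of directions depends on the scaling. That scaling moved the median difference of all probe sets tested to -0.13, against 0.03 as deposited.

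**Figure D1:**
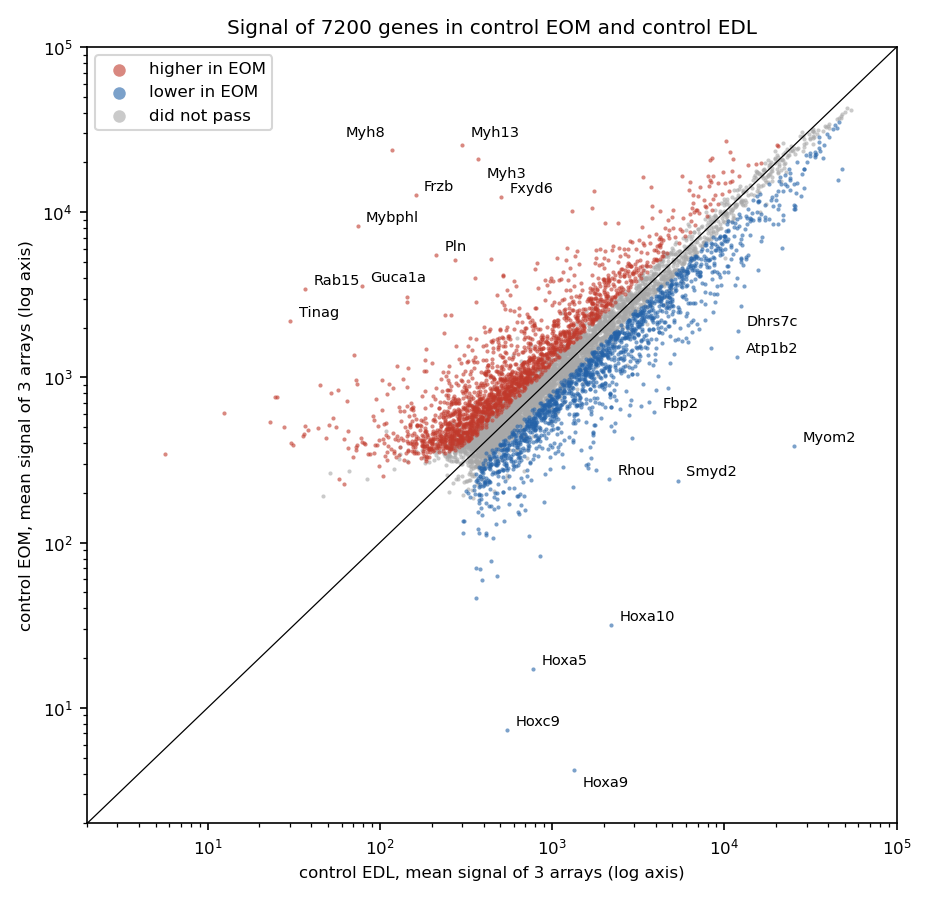
Mean signal of 3 control EOM arrays (vertical, log axis) against that of 3 control EDL arrays (horizontal, log axis) for 7200 genes, each by its brightest probe set, with the line of equality. Red genes were higher and blue genes lower in EOM at an adjusted p under 0.05, grey genes did not pass, and the 10 genes that led each direction are named.

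The sharpest difference lay in the myosin heavy chains, the motor proteins whose isoform sets how fast a fibre shortens. 3 of the 9 tested were far higher in EOM. Myh8, the perinatal chain, which limb fibres give up after birth, had signals of 26230, 22686 and 22772 in EOM, against 159, 85.2 and 108 in EDL. The difference was log2 7.71 (SE 0.22, adjusted p = 6.85e-06), the largest of any gene ranked with 100 added to each signal. Myh13, the chain named for the eye muscles and their superfast contraction, had 27688, 24384 and 24618 in EOM, against 307, 281 and 315 in EDL. Its log2 difference was 6.41 (SE 0.10, adjusted p = 1.67e-06). Myh3, the embryonic chain, had 21364, 22521 and 19047 in EOM, against 432, 496 and 188 in EDL, a log2 difference of 5.93 (SE 0.35, adjusted p = 9.20e-05). In all 3 genes every EOM array lay far above every EDL array. In the diaphragm of control rats they averaged 150 ± 24.2, 19.1 ± 15.3 and 36.5 ± 40.2 (SD, n = 3), where the EDL mean of Myh8 was 117.

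The adult limb chains were present in both muscles. Myh2, the IIA chain of fast oxidative fibres, had 25807, 25281 and 25165 in EOM and 43046, 37482 and 33589 in EDL (log2 -0.57, SE 0.11, adjusted p = 0.00714). Myh4, the IIB chain of the fastest limb fibres, had 30502, 28030 and 26735 in EOM and 45958, 37864 and 37973 in EDL (log2 -0.51, SE 0.12, adjusted p = 0.0121). Both differences were below 1.5-fold, 4 chains in place of 2 were lower when arrays were set to equal medians, and Myh4 no longer passed without EOM control 3 (log2 -0.47, adjusted p = 0.0514) or with the diaphragm arrays in the fit (adjusted p = 0.192). Myh1, the IIX chain, did not pass by its brightest probe set (log2 0.25, adjusted p = 0.0784). Its 5 tested probe sets did not run one way, since 2 passed as higher and 1 as lower. Myh7, the slow chain, had 14903, 15652 and 15631 in EOM and 22637, 26168 and 15533 in EDL, and EDL control 3 overlapped the EOM arrays. Myh6, the atrial chain, and Myh14, a non-muscle chain, had log2 differences of 0.77 and -0.23 that did not pass. These genes share long stretches of sequence, and a bright chain may add signal to the probe sets of its neighbours, a limit that weighs most on small differences. On rat chromosome 10 the genes stand in the order Myh3, Myh2, Myh1, Myh4, Myh8 and Myh13, so the 3 chains far higher in EOM were the first and the last 2 of the cluster.

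**Figure D2:**
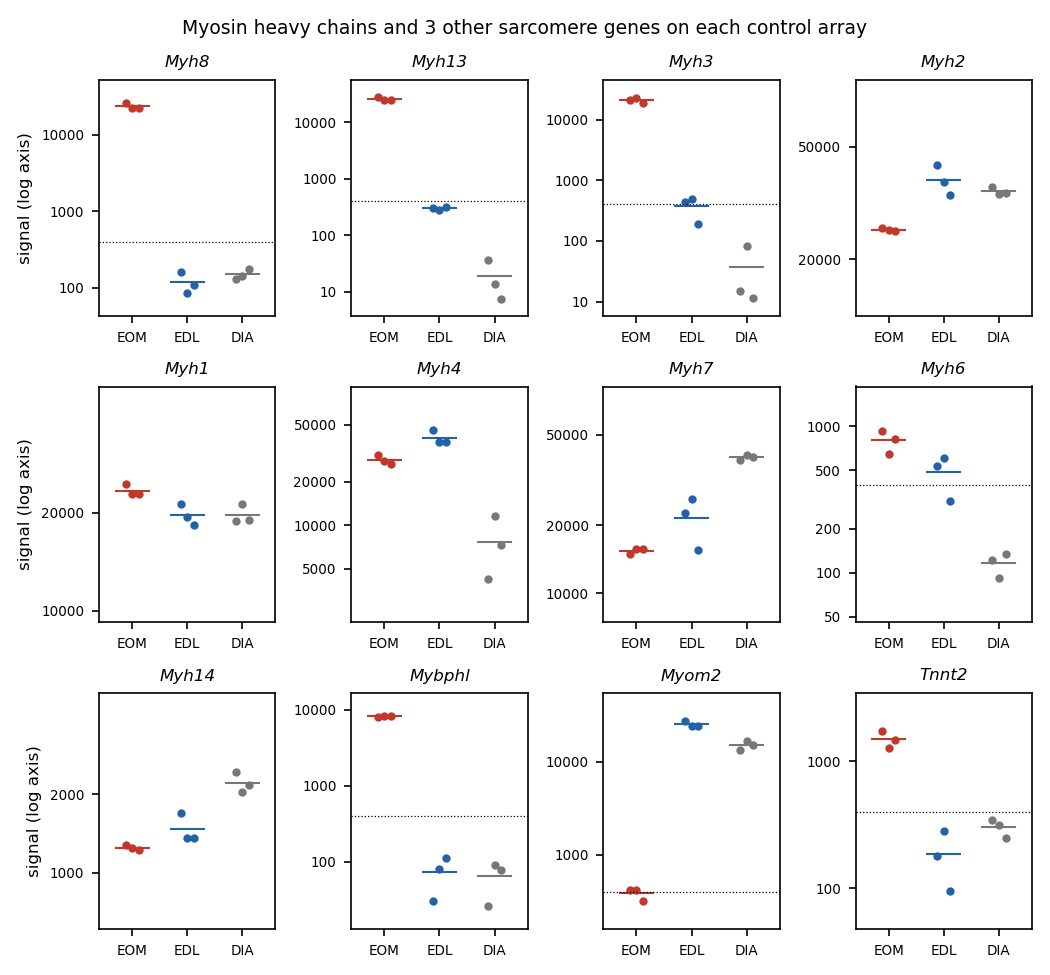
Signal (log axis) of the 9 tested myosin heavy chains and of Mybphl, Myom2 and Tnnt2 on each control array, with EOM, EDL and DIA from left to right. Points are single arrays, bars are means of 3 arrays, and the dotted line marks the minimum of 400 where it falls in range. Myh8, Myh13, Myh3, Mybphl and Tnnt2 stood above the minimum in EOM alone but for 2 EDL arrays of Myh3, and Myom2 fell to 384 in EOM, against 25373 in EDL.

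Other proteins of the thick filament and the M-line, which links thick filaments in the middle of the sarcomere, differed as well. Of 10 tested, 3 were higher and 7 lower in EOM, with a median log2 of -0.90, against 0.06 over all genes tested. Myom2, the M-line protein of fast fibres, had 416, 418 and 317 in EOM, against 27575, 24499 and 24044 in EDL, a log2 difference of -6.06 (SE 0.14, adjusted p = 3.49e-06). No other gene led the lower direction by as much, with 100 added to each signal. Mybphl, a relative of the myosin binding proteins known from the atrium of the heart, ran the other way. It had 8103, 8282 and 8342 in EOM, against 30.7, 79.8 and 113 in EDL, where 2 arrays were below background (80). Its log2 difference was 6.98 (SE 0.44, adjusted p = 1.12e-04), or 5.61 with 100 added to each signal, and its size is uncertain because the EDL level lay at background. Mybph was higher by log2 1.29. Mybpc2, the fast myosin binding protein, was lower, at 15093, 16158 and 15434 in EOM and 51797, 43533 and 41615 in EDL (log2 -1.55, adjusted p = 1.72e-04). Smyd2, a lysine methyltransferase that acts on sarcomere-bound proteins, was among the 10 most lowered genes of all, with 242, 284 and 185 in EOM, against 5382, 5336 and 5410 in EDL (log2 -4.52).

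The Z-disc, where thin filaments are anchored, leaned the same way. Of 27 tested genes of the Z-disc and its stress response, 1 (Hspb7, log2 0.31) was higher and 17 were lower in EOM (median log2 -0.49). Without EOM control 1, 2 or 3, none was higher and 13 were lower, and without EDL control 2, 2 were higher and 15 lower. Quantile normalization gave 4 higher and 13 lower, and with no signal minimum none was higher and 10 were lower. Of the 13 markers of skeletal muscle fibres, 7 were lower and none higher (median log2 -0.39), and the part of fibre content in the sarcomere differences was not tested. Ankrd23 had a log2 difference of -1.84, Ankrd1 of -1.54, Actn3, the actinin of fast fibres, of -1.38, and Lmod3, which nucleates thin filaments, of -1.14. Among the myosin light chains and their kinases none of 7 was higher and 2 were lower. Mylk2, the kinase that phosphorylates the fast light chain, had 1632, 1464 and 1429 in EOM and 9278, 7735 and 8059 in EDL (log2 -2.47, adjusted p = 3.93e-05). Myl3, a slow light chain, was lower by a smaller amount (log2 -0.62). The median of the light chain list was -0.25 as deposited and 0.10 after quantile normalization.

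Among thin filament isoforms that passed as deposited, slow and cardiac ones were higher in EOM and fast ones lower. Of 5 slow and cardiac isoforms, 4 were higher in EOM and none lower. Tnnt2, the troponin T of heart and of developing muscle, had 1731, 1277 and 1473 in EOM, against 179, 282 and 95.6 in EDL (log2 3.13, SE 0.37, adjusted p = 9.86e-04). Tpm3, the slow tropomyosin, had 10697, 10431 and 10851 in EOM, against 1543, 1950 and 1631 in EDL (log2 2.65), although 1 fainter probe set of the same gene was lower in EOM. Tnnt1 and Tnni1, the slow troponins, were higher by only 0.61 and 0.48, and lost the call when all 18 arrays were fitted together. Of 6 fast isoforms, 3 were lower and none higher. Tpm2 was lower by log2 -0.60, Tpm1 by -0.47 and Tnnt3 by -0.39. After quantile normalization or without EOM control 3 only 1 fast isoform passed, while 5 passed without EDL control 3 and 6 when arrays were set to equal medians. Tnnt3 stood at 0.01 after quantile normalization, so for these bright genes a direction depends on the scaling.

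Among proteins that handle calcium, most of those that passed were lower in EOM. Of 29 tested, 5 were higher and 18 lower in EOM (median log2 -0.49). Stim1, a sensor of the calcium store, was higher by log2 0.76, and 3 of the other 4 are best known from heart and slow muscle. Pln, phospholamban, the brake on the slow calcium pump, had 5427, 5499 and 5577 in EOM, against 243, 199 and 193 in EDL, and 2608 ± 56.9 (SD, n = 3) in control diaphragm. Its log2 difference was 4.71 (SE 0.11, adjusted p = 3.82e-06). Sln, sarcolipin, a relative of Pln that also inhibits the pump, had 4096, 4000 and 4182 in EOM, against 804, 387 and 363 in EDL (log2 3.08). Casq2, the calcium store protein of heart, was higher by log2 1.81 and Rcan2, an inhibitor of calcineurin, by 2.96. All EOM arrays of these 4 genes lay above all EDL arrays. The lower ones included parts of the release machinery. Ryr1, the release channel, had 10602, 8794 and 9540 in EOM and 26117, 21841 and 17799 in EDL (log2 -1.17, adjusted p = 0.00166). Jph2, which holds tubule and store together, was lower by log2 -1.69, Cacng1, a subunit of the voltage sensor, by -1.44, and Ppp3ca, the catalytic subunit of calcineurin, by -1.26. Atp2a1, the fast pump itself, did not pass (log2 -0.34, adjusted p = 0.0780), and Pvalb, the fast calcium buffer, passed as deposited (log2 -0.41) but not after quantile normalization (-0.12) or without any of the 3 EOM arrays or EDL control 1.

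The sodium pump differed by subunit. Atp1b2, a beta subunit, had 1429, 1258 and 1299 in EOM, against 13056, 11891 and 10783 in EDL (log2 -3.16, SE 0.11, adjusted p = 1.65e-05). Atp1b1, the more widespread beta subunit, ran the other way, with 20239, 20991 and 20673 in EOM and 8460, 8137 and 8227 in EDL (log2 1.32, adjusted p = 1.07e-04). Fxyd6, a small regulator of the pump, had 12104, 12163 and 12601 in EOM, against 527, 533 and 457 in EDL (log2 4.61, SE 0.10, adjusted p = 3.34e-06). Over the 12 tested ion channels and pumps 3 were higher and 6 lower. The count of higher genes was 1 without any single array other than EDL control 3, and 4 without that one. Kcnc4, a fast potassium channel, was lower by log2 -1.22.

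Endplate genes leaned toward EOM. Of 15 tested genes of the AChR and the endplate, 13 were higher and none lower, with a median log2 of 1.07. 7 of the 15 reached 400 in EOM alone. The AChR is a pentamer of 2 alpha subunits with a beta, a delta and, in adult limb muscle, an epsilon subunit, which takes the place of the fetal gamma subunit. Chrna1, the alpha subunit, which carries the main target of antibodies in myasthenia gravis, had 2588, 2508 and 2596 in EOM, against 430, 562 and 710 in EDL (log2 2.21, SE 0.18, adjusted p = 2.62e-04). Chrnd, the delta subunit, had 2412, 2182 and 2573 in EOM, against 234, 257 and 286 in EDL (log2 3.21, SE 0.12, adjusted p = 1.84e-05). In both genes the lowest EOM array was more than 3-fold above the highest EDL array. Chrne, the epsilon subunit, had 937, 863 and 986 in EOM, against 323, 178 and 333 in EDL (log2 1.79, adjusted p = 0.00169). Chrnb1, the beta subunit, differed least, with 793, 816 and 954 in EOM and 563, 548 and 694 in EDL (log2 0.51, SE 0.13, adjusted p = 0.0199). It did not pass without EOM control 3, EDL control 1 or EDL control 2 (adjusted p = 0.0729, 0.0605 and 0.0620). Chrng, the gamma subunit, was below background on all 6 arrays, at 30.5, 31.2 and 43.6 in EOM and 9.76, 18.8 and 14.6 in EDL, and was not tested.

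Around the receptor, Lrp4, which binds the nerve signal agrin, had 2744, 2203 and 2814 in EOM and 457, 548 and 590 in EDL (log2 2.28, adjusted p = 1.17e-04). Utrn, utrophin, the dystrophin relative of the endplate, was higher by log2 1.26. Rapsn, which clusters the receptor, did not pass at 484, 661 and 550 in EOM and 423, 456 and 419 in EDL (log2 0.37, adjusted p = 0.0569). Dok7, which activates the muscle kinase of the endplate, had 801, 626 and 804 in EOM and 755, 720 and 773 in EDL, and the groups overlapped. Musk, that kinase, stayed under 400 on every array, at 124, 122 and 91.3 in EOM and 26.1, 23.5 and 41.3 in EDL, and was not tested. Control diaphragm was close to EDL in Chrna1 (609 ± 79.4), Chrne (249 ± 70.2) and Lrp4 (617 ± 65.1), but in Chrnd it had 825 ± 110, against 259 ± 26.1 in EDL (SD, n = 3 each). Fewer endplates and less transcript per endplate cannot be told apart in whole muscle, and the same holds for cells and their RNA in every group below.

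**Figure D3:**
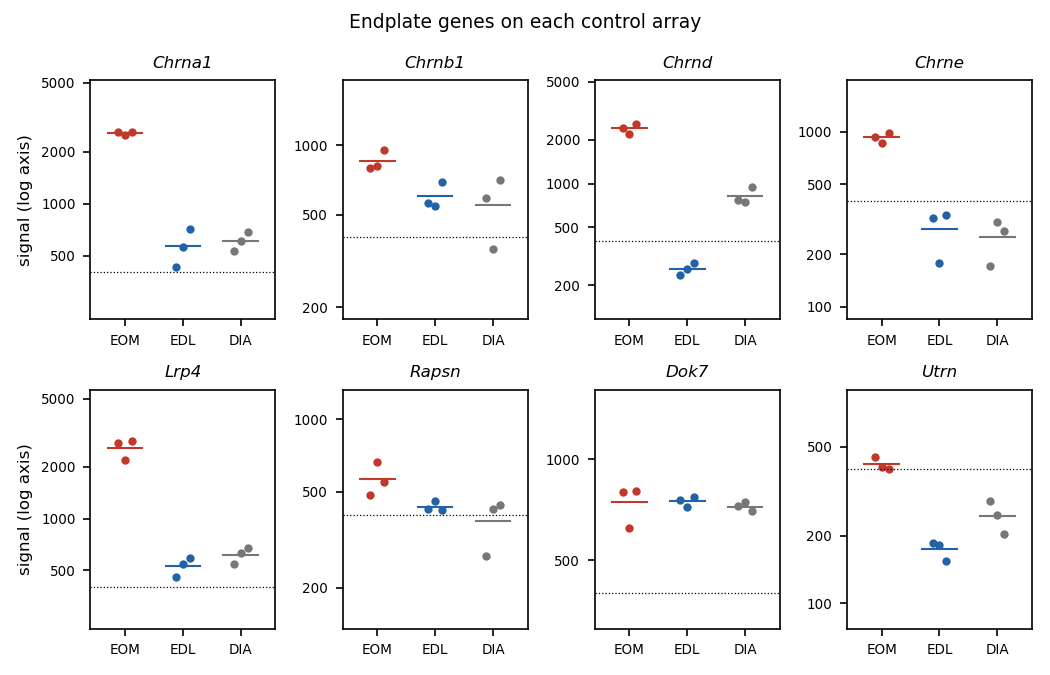
Signal (log axis) of 4 AChR subunits and 4 other endplate genes on each control array, with EOM, EDL and DIA from left to right. Points are single arrays, bars are means of 3 arrays, and the dotted line marks the minimum of 400. Chrna1, Chrnd, Chrne, Lrp4 and Utrn lay higher on every EOM array than on every EDL and DIA array, and Dok7 overlapped between muscles.

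Promoter sequence is shown for the AChR subunits, which moved together to different degrees, and for the myosin chains at either end of the cluster. In muscle, genes used at the endplate are known to carry an N-box (CCGGAA), the site of Ets factors that restrict transcription to nuclei beneath the nerve, and muscle genes more widely an E-box (here CAGCTG), the site of the myogenic factors. The windows are the 250 bases before the annotated start in RefSeq for rat build GRCr8, 5′ to 3′ on the strand of the gene. The N-box is in capitals in Chrnd and Chrne, the E-box in Chrna1, Chrnb1 and Myh13, and the TATA box (TATAAA) in Myh3. The Chrna1 window lies at chr3:78877354-78877603 on the minus strand, that of Chrnb1 at chr10:55015108-55015357 on the minus strand, that of Chrnd at chr9:95310066-95310315 on the plus strand and that of Chrne at chr10:55834155-55834404 on the minus strand. Those of Myh3 and Myh13 lie at chr10:52268935-52269184 and chr10:52511523-52511772, both on the plus strand.
Chrna1: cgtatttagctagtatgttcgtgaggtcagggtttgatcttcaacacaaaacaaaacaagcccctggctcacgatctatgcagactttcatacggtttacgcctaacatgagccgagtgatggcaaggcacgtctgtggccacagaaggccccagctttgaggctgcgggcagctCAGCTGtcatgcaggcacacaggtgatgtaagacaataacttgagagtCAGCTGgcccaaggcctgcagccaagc
Chrnb1: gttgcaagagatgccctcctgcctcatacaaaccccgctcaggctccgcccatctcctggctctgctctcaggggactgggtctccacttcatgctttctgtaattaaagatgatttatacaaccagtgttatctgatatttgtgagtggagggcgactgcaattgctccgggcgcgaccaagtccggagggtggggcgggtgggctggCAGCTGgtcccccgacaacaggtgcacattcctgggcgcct
Chrnd: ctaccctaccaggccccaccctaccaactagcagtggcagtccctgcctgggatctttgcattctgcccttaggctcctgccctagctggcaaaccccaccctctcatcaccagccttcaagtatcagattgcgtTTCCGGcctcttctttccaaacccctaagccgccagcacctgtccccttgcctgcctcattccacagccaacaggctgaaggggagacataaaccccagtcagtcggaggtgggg
Chrne: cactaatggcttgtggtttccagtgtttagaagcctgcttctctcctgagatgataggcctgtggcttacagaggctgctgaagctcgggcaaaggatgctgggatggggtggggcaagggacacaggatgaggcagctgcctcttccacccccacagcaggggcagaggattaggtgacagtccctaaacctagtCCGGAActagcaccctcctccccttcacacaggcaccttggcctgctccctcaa
Myh3: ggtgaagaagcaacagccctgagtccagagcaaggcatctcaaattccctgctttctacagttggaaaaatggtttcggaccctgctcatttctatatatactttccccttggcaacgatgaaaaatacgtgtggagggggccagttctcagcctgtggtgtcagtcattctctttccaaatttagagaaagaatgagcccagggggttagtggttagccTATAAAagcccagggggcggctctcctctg
Myh13: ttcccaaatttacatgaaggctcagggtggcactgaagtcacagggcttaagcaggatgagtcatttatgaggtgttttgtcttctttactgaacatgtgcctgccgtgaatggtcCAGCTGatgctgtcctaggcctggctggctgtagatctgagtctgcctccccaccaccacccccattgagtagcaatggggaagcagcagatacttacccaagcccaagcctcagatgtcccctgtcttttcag

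Both strands were searched, and in these 6 windows no match shared bases with another. Chrne held an N-box that began 54 bases before the start and Chrnd one, on the opposite strand, 115 bases before it. Chrna1 held 2 E-boxes, the nearer 27 bases before the start, and Chrnb1 and Chrne held 1 each. Chrna1 and Chrnb1 held no N-box of these letters. Myh3 had a TATA box 30 bases before its start and Myh13 none of these letters. Whether transcription begins at these annotated starts was not tested, so the windows of Myh3 and Myh13 may not be alike in kind. Among all 33469 windows of the same length, 12.6% held an N-box, 11.97% this E-box and 12.9% a TATA box. A match describes letters in a window and not a site in use.

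Homeobox (Hox) genes, which record position along the body axis and are not used in most of the head, were present in EDL and near background in EOM. Of 21 Hox genes measured, 14 stayed under 400 on all 6 arrays, and the other 7 reached it in EDL alone, so that by the filter they had to lie higher in EDL. They are therefore described and not counted. Hoxa9 had 4.61, 2.91 and 5.07 in EOM, against 1390, 1336 and 1316 in EDL. Hoxa10 had 11.2, 40.2 and 43.8 in EOM, against 2298, 2032 and 2262 in EDL. The EDL mean was at least 16.8-fold (Hoxa9) and at least 27.4-fold (Hoxa10) that of EOM when EOM is set to the background of 80. Hoxc9 had 8.40, 6.26 and 7.44 in EOM, against 578, 632 and 440 in EDL. Hoxa9, Hoxa10 and Hoxc9 averaged 76.7, 161 and 63.9 in control diaphragm. Hoxa5, a gene of the neck and trunk, had 6.42, 7.02 and 38.3 in EOM, against 827, 735 and 772 in EDL, and was high in control diaphragm too (1075 ± 77.3, SD, n = 3). Hoxb3 and Hoxd8 differed least, by log2 -1.42 and -0.77. On rat chromosome 4, Hoxa9, Hoxa10 and Hoxa11 are neighbours, and Hoxa11 had 75.0, 46.2 and 67.8 in EOM, against 506, 415 and 521 in EDL.

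Of 44 measured transcription factors that form head, eye and limb muscle, only 4 reached 400 in either muscle, and Six4 was the 1 that passed (log2 -0.36, lost without any single array but EDL control 1). Among 32 tested myogenic regulators and members of the myostatin pathway, 11 were higher (34%) and 12 lower (38%), against 26.9% and 20.6% of all genes tested. Of these 32, 6 reached 400 in EOM alone and 1 in EDL alone. Vgll2, a cofactor of the muscle TEAD factors that limb muscle depends on, had 501, 613 and 654 in EOM, against 2422, 2713 and 3230 in EDL (log2 -2.24). Sox6, which represses slow fibre genes in fast fibres, was lower by log2 -1.56 (adjusted p = 1.34e-04), and Nfix, which turns on the fetal muscle programme, by -1.58. Nfix did not pass without EOM control 3 (adjusted p = 0.0537). Fst, follistatin, which blocks myostatin, was higher, with 720, 612 and 638 in EOM and 132, 202 and 128 in EDL (log2 2.12).

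Growth factors leaned toward EOM. Of 23 tested, 13 were higher and 1 lower (median log2 0.64). Igfbp5, which binds insulin-like growth factors in muscle, had 15991, 15601 and 17313 in EOM, against 3497, 3524 and 3133 in EDL (log2 2.27, adjusted p = 3.40e-05). Igf1 itself had 3033, 4288 and 4254 in EOM, against 1009, 1173 and 741 in EDL (log2 1.99, adjusted p = 6.85e-04). Pdgfra, a receptor of connective tissue progenitors, and Fgf1 were higher by log2 1.56 and 1.42. Frzb, a secreted inhibitor of Wnt signals, was among the 10 leading genes with 100 added to each signal, with 13492, 12291 and 12171 in EOM, against 123, 196 and 165 in EDL (log2 6.32, SE 0.18, adjusted p = 6.66e-06).

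Fuel handling separated the muscles along the glycogen route. Of 13 tested genes of glycogen handling, 2 were higher and 8 lower in EOM (median log2 -0.52). Phka1, the regulatory subunit of phosphorylase kinase in muscle, had 2804, 2966 and 2866 in EOM, against 8828, 8179 and 9604 in EDL (log2 -1.62, adjusted p = 9.48e-05). Pgm1, which passes sugar phosphate from glycogen to glycolysis, was lower by log2 -1.22. Of 30 tested genes of glycolysis and lactate, 9 were higher and 15 lower. Fbp2, the muscle enzyme that returns lactate carbon toward glycogen, was the lowest of these, with 615, 621 and 620 in EOM and 3848, 3867 and 4018 in EDL (log2 -2.66, SE 0.08, adjusted p = 9.37e-06). Slc16a3, the exporter of lactate in fast fibres, had 3240, 3651 and 3885 in EOM, against 12414, 12507 and 13954 in EDL (log2 -1.85). Pfkfb1, a regulator of phosphofructokinase, was lower by log2 -2.01.

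The higher members included isoforms best known from other tissues. Eno1, the general enolase, had 14025, 14244 and 14633 in EOM, against 3425, 3672 and 4121 in EDL (log2 1.94, adjusted p = 6.36e-05). Ldhb, the heart form of lactate dehydrogenase, was higher by log2 1.40 and Ldha, the muscle form, lower by -0.55. Of 16 creatine and adenine nucleotide kinases and AMP sensors, 5 were higher and 7 lower. Ak4, a mitochondrial adenylate kinase, had 946, 899 and 1066 in EOM, against 86.3, 87.2 and 45.3 in EDL, close to background (log2 3.79, or 2.64 with 100 added to each signal). Prkag3 and Prkaa2, subunits of the AMP-activated kinase of fast muscle, were lower by log2 -1.87 and -1.80.

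The oxidative core was close to even. Of 56 tested genes of the respiratory chain and ATP synthase, 7 were higher, 3 lower and 46 did not pass, with a median log2 of -0.05. Of 23 genes of the citric acid cycle, 2 were higher, 1 lower and 20 did not pass. These small differences depend on the scaling. Quantile normalization gave 16 higher respiratory genes and 8 higher genes of the citric acid cycle, and setting arrays to equal medians gave 16 lower respiratory genes. Without EDL control 3, 11 respiratory genes were higher, and 4 genes of the citric acid cycle were higher and 3 lower. Equal medians gave 1 higher and 5 lower genes of that cycle, and without EOM control 3 it had 1 higher. The respiratory genes that passed with the largest differences were Slc25a5, a carrier of ADP and ATP (log2 1.42), Cox6a1 (1.31), Cox8a (1.26) and Cox7a1 (1.10), all but the last forms shared with other tissues. Fatty acid use stood higher. Of 40 tested, 22 were higher and 2 lower (median log2 0.33). Slc25a20, the carrier of acylcarnitines, had 3857, 3784 and 4065 in EOM, against 1089, 1153 and 1465 in EDL (log2 1.67, adjusted p = 2.29e-04). Slc27a1, a fatty acid transporter, was higher by log2 1.51. Without EOM control 1, 2 or 3 the count of higher genes was 11, 14 or 12, and without EDL control 1 it was 14. With arrays set to equal medians the count was 12, and with no signal minimum it was 6. Of 35 antioxidant and detoxification genes, 17 were higher and 1 lower, while with no signal minimum 7 were higher and 1 lower. Gpx1, a glutathione peroxidase, had 16061, 16607 and 16883 in EOM, against 4755, 5145 and 7159 in EDL (log2 1.56), and the 1 lower gene was Selenow, a selenoprotein of muscle (log2 -1.36).

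**Figure D4:**
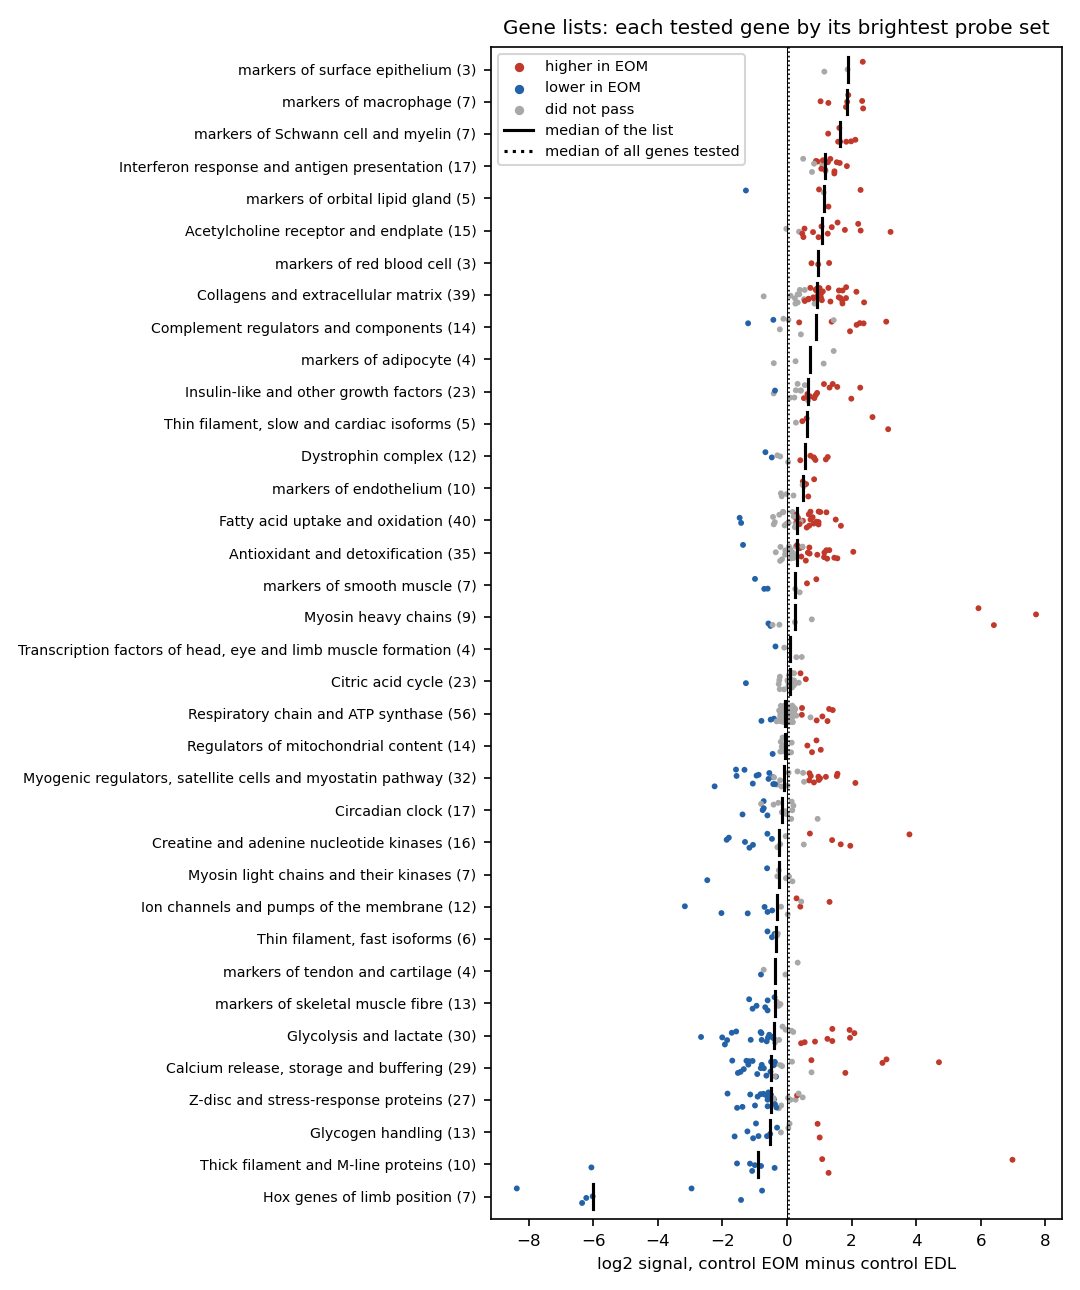
Log2 signal in control EOM minus control EDL (horizontal) for each tested gene of the lists with 3 or more tested members, the number in brackets. Red genes were higher and blue genes lower in EOM at an adjusted p under 0.05 and grey genes did not pass, black bars mark the list median and the dotted line the median of all 7200 genes (0.06). All 7 Hox genes shown reached the minimum of 400 in EDL alone and 7 of the 15 endplate genes in EOM alone, so the filter fixed their side. Of the 39 connective tissue genes, 28 are red and none blue, and 5 of the 39 reached 400 in EOM alone.

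Genes of connective tissue, nerve and macrophages stood higher in EOM. Of 39 tested genes of collagens and extracellular matrix, 28 were higher in EOM and none lower (median log2 0.94). Of these 39, 5 reached 400 in EOM alone. The count of higher genes was 19 to 32 without 1 array and 13 with no signal minimum. Without EDL control 3 the median was 0.72. Lum, lumican, a proteoglycan of collagen fibrils, had 8395, 8559 and 8903 in EOM, against 2123, 2705 and 1273 in EDL (log2 2.15). Mfap4, Efemp1 and Ogn, other matrix proteins, were higher by log2 2.39, 1.83 and 1.72. All 7 tested Schwann cell and myelin markers were higher, 2 of them at 400 in EOM alone, with a summed signal over 11 measured markers of 18933 to 22773 in EOM and 4235 to 8991 in EDL. Mbp, myelin basic protein, had 4608, 3763 and 3688 in EOM and 1032, 1371 and 552 in EDL (log2 2.12).

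Of 10 neuron markers measured, 2 reached 400, both in EOM alone. Nefm, a neurofilament, had 897, 749 and 638 in EOM, against 11.6, 42.9 and 21.1 in EDL. Snap25, of the machinery that releases transmitter from nerve endings, had 477, 281 and 275 in EOM, against 3.23, 5.91 and 7.77 in EDL. Both are genes of nerve cells, and the summed signal over the 10 markers was 1928 to 2686 in EOM and 609 to 668 in EDL. The part of nerve tissue in the endplate differences was not tested. Endothelial markers differed less, with 4 of 10 higher (log2 up to 0.84, for Vwf) and none lower, while 2 passed without EOM control 3 and none with no signal minimum.

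Macrophage markers and genes of antigen presentation stood higher as well. All 7 tested macrophage markers were higher, 3 of them at 400 in EOM alone, and the summed signal over 10 measured markers was 6510 to 13454 in EOM and 2113 to 4174 in EDL. Lyz2, lysozyme, had 2926, 6855 and 3944 in EOM and 1353, 1727 and 757 in EDL (log2 1.83, adjusted p = 0.0103). EOM control 2 had the highest and EDL control 3 the lowest sum, and without EDL control 3 the count was 6 with a median log2 of 1.49, against 1.86 with it. Without EOM control 2 or 3 the count was 5, and with no signal minimum none of the 7 passed. Of 17 genes of the interferon response and antigen presentation, 12 were higher and none lower (median log2 1.18). Of these 17, 7 reached 400 in EOM alone, so the filter fixed their side. Only 6 passed without EDL control 3, 7 without EDL control 1 and 2 with no signal minimum. RT1-Da, a class II molecule, had 1443, 3847 and 1688 in EOM and 709, 1026 and 431 in EDL. None of 8 lymphocyte markers measured reached 400. Both muscles came from rats given adjuvant, so these levels are not those of a naive animal.

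Complement, the plasma system whose attack complex damages the endplate in myasthenia gravis, was measured through components and regulators. Of 14 tested, 7 were higher and 2 lower. The higher ones were led by C1qb (log2 3.07), Serping1 (2.37), C1qa (2.26) and C1s (2.16), of the first step and its inhibitor. Serping1, the C1 inhibitor, had 4886, 7908 and 5474 in EOM, against 1249, 1652 and 738 in EDL (adjusted p = 0.00160). C1qa and C1qb are made by macrophages, and macrophage markers were higher beside them, but the part of macrophages in these values was not tested. With no signal minimum C1qa did not pass (limma adjusted p = 0.0798). Of the regulators on cell surfaces, Cd55, decay accelerating factor, had 971, 1201 and 1087 in EOM, against 2495, 2592 and 2394 in EDL (log2 -1.20, SE 0.11, adjusted p = 3.75e-04), and 984 ± 72.2 in control diaphragm (SD, n = 3). A fainter Cd55 probe set did not pass. Cd59b, which blocks the attack complex, had 5914, 6268 and 6011 in EOM and 6204, 6626 and 6807 in EDL and did not pass (log2 -0.11, and 0.07 after quantile normalization). Cr1l was higher by log2 0.38, a call lost without any of the 3 EOM arrays or EDL control 1, and Clu was lower by -0.42. Vtn did not pass (log2 0.43, adjusted p = 0.0567).

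Genes of the dystrophin complex, which ties the fibre to its matrix, were higher in 7 and lower in 2 of 12 cases. Sgce and Lama2 were higher by log2 1.20 and 0.88. Probe sets of Dtna passed in opposite directions, as happened for 23 of 1359 genes with more than 1 tested probe set. No gene of 17 tested clock genes was higher and 5 were lower, while 2 passed as lower without EOM control 3 and 3 without EDL control 1 or EDL control 2. Rora had the largest difference (log2 -1.38), and the core clock gene Clock was lower by -0.75. Per2 and Dbp, whose levels swing over the day, varied more between arrays of 1 muscle than between muscles.

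The other leading genes fall outside these lists. Rab15, a GTPase of endosomes known from nerve, had 3517, 3208 and 3512 in EOM, against 50.3, 52.5 and 7.38 in EDL, at least 42.6-fold over background. Guca1a, an activator of the guanylate cyclase of photoreceptors, had 3750, 3466 and 3525 in EOM, against 85.5, 82.5 and 69.2 in EDL, close to background (log2 5.51, or 4.36 with 100 added to each signal). Tinag, a basement membrane protein known from kidney tubules, had 2314, 2035 and 2214 in EOM, against 46.2, 27.7 and 16.9 in EDL. In the lower direction, Dhrs7c, a retinol dehydrogenase of the calcium store membrane, had 1870, 2064 and 1836 in EOM, against 12866, 12341 and 10980 in EDL (log2 -2.65). Of genes taken from the study's own account of eye muscle, which are not independent of these arrays, Rgs2, which dampens G protein signals, was higher by log2 1.72. Bpifa1, a secreted protein of airway epithelium, had 408, 394 and 293 in EOM and 70.4, 92.2 and 55.0 in EDL, close to background (log2 2.35, or 1.43 with 100 added to each signal). Csrp3, a stretch sensor of the Z-disc, did not pass (log2 -0.43) and ranged from 2917 to 7045 within EDL alone.

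Markers of glands and epithelium were checked because orbital tissue surrounds the eye muscles. Of 5 tested markers of orbital lipid glands, 3 were higher and 1 (Me1, log2 -1.27) was lower. The summed signal over 8 measured markers was 5535 to 6743 in EOM and 7061 to 8763 in EDL. Such a sum follows its brightest members, and its direction was not that of most of the tested markers. Scd, a lipid enzyme of orbital glands and of fat, was higher by log2 2.28. Amy1, an amylase, was higher by 2.32, while keratins Krt5 and Krt15 were high on EOM control 1 alone (547 and 405) and did not pass. Klk1, tissue kallikrein, known from salivary glands and kidney, had 2789, 2920 and 3448 in EOM and 121, 190 and 123 in EDL (log2 4.43). The summed signal of 12 lacrimal gland markers was 1299 to 1445 in EOM and 675 to 948 in EDL. The part of other orbital tissue in these values was not tested. Haemoglobin also differed, with Hbb at 7760, 10850 and 9142 in EOM and 3181, 4898 and 3270 in EDL (log2 1.31).

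The EAMG arrays of the same 2 muscles share no array with the control comparison and played no part in its calls. On the same 7200 genes, 22.3% were higher and 16.5% lower in EOM of EAMG rats against EDL of EAMG rats. Of the 1938 genes higher in control EOM, 1864 had the same sign in EAMG rats, and 1318 (68.0%) passed in that direction and 3 in the other. Of the 1483 lower genes, 1431 had the same sign, and 931 (62.8%) passed in that direction and none in the other. Over all 7200 genes tested, called or not, 6051 had the same sign in control and EAMG arrays. Of the genes higher in EAMG EOM 82.2% were also higher in control EOM, and of the lower ones 78.5% were also lower. Myh8 differed by log2 7.89 in EAMG arrays against 7.71 in control arrays, Myh13 by 6.48 against 6.41, Frzb by 6.34 against 6.32, Pln by 5.15 against 4.71, Chrna1 by 2.94 against 2.21 and Chrnd by 2.76 against 3.21. Myom2 differed by -4.79 in EAMG arrays against -6.06 in control arrays. Tnnt1 and Tnni1 had the opposite sign in EAMG arrays (log2 -0.16 and -0.23), and Tpm3 differed by 0.32. In all 3 genes 1 of the 3 EDL arrays of EAMG rats, EDL EAMG 2, stood apart. Its Tpm3 signal was 18729 beside 2052 and 1648. For Tnnt1 it had 31641 beside 6026 and 6802, against 11681, 9516 and 8295 in EAMG EOM. For Tnni1 it had 30701 beside 9738 and 10642, against 12987, 12176 and 12392 in EAMG EOM. A test of the difference between the EAMG and the control contrast passed for 10 of 11077 probe sets (0.0903%).

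**Figure D5:**
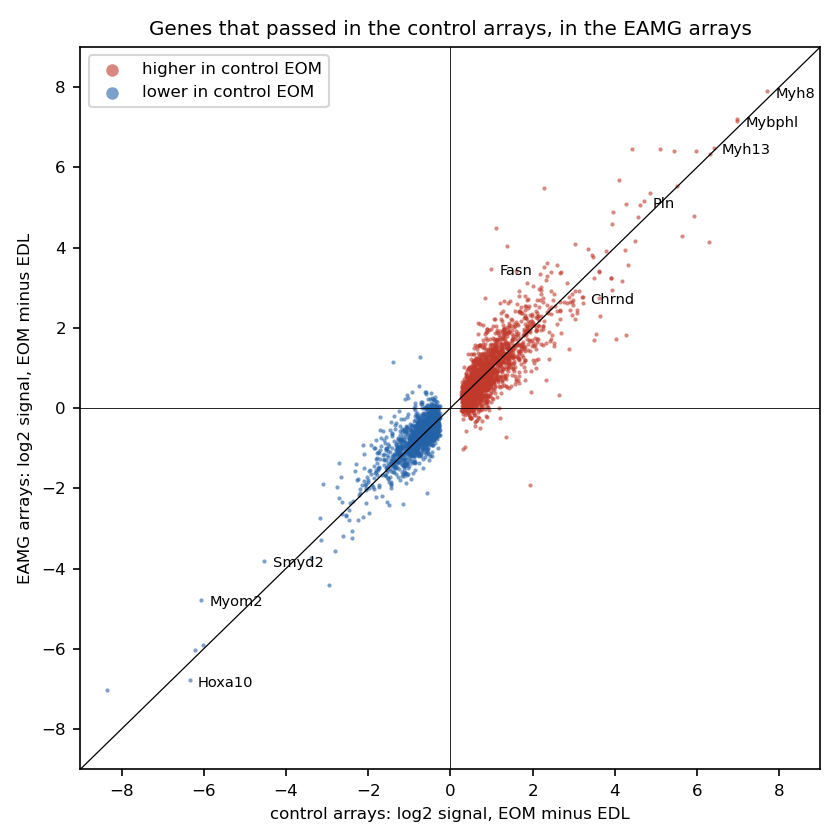
Log2 signal in EOM minus EDL for the genes called in the control arrays, in the EAMG arrays (vertical) against the control arrays (horizontal), with lines at 0 and the line of equality. Most points lie near the line of equality, with Myh8 at 7.89 in EAMG arrays against 7.71 in control arrays, and the scatter of genes close to 0 crosses the horizontal line.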

How the data were processed

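RNA of pooled muscles was hybridised to Affymetrix rat arrays, 1 array per pool, and 3 control EOM and 3 control EDL arrays were compared. The authors deposited signal intensity on a linear scale, computed with GCOS 2.0 and scaled by them so that all arrays had the same trimmed mean. The intensity deposited was used with no further normalization. Log2 signals were fitted with limma 3.58.1 (lmFit and eBayes, R 4.3.3) over the 6 arrays with no covariate, for the 11077 probe sets that reached 400 on at least 1 of them, with Benjamini-Hochberg adjustment. The minimum is the study's, described as 5 times background, which puts background at 80. The number of rats per pool is given differently in different places and is not printed. The methods describe repeated experiments, but the labels do not tie an array to one.

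Of 31042 probe sets, 20826 carried 1 gene symbol in the platform annotation, 436 several and 9780 none, and only those with 1 symbol were named. Genes named are the 10 highest and 10 lowest of those that passed without overlap, by the difference after adding 100 to each signal. To these were added up to 4 members of each list, every tested myosin heavy chain, receptor subunit and complement regulator, and the genes the study named for eye muscle. Other genes named were chosen after their values were seen, and 1 of the 10 lowest genes and 1 marker list are not reported here. The members and lists were chosen with earlier results of these data known. Data were simulated with the spread and number of the 11077 probe sets of this comparison. There 72 of 100 changes of log2 1 and 95 of 100 changes of log2 2 were called, with 8 false calls. No other probe set was changed in the simulation, whereas 45.8% of probe sets were called in the data. Its rates therefore cannot be carried over to the calls made here. A fold written as "at least" sets the mean of the brighter muscle against the background of 80. The number of arrays limits the precision. Alternatives were the minimum, an added constant, quantile or median scaling, fits with more arrays, a variance trend, the array number as a block, a fold rule on pairs of arrays, and leaving out each array. Promoters were read from RefSeq, build GRCr8. Python 3.11.15 with pandas 2.3.3, scipy 1.17.1 and matplotlib 3.10.9 made the tables and plots.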

Additional observations from a re-analysis of the deposited data

Results flagged for a closer look

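The difference between EOM and EDL was itself set against that of the EAMG arrays, as the log2 difference in EAMG arrays minus that in control arrays, over the 11077 probe sets. 10 probe sets (0.0903%) passed, 8 upward and 2 downward, and they hold 6 named genes and 1 probe set with no single symbol. Akip1 was represented by 4 of the 10. Apart from Fasn, these genes were named after their values were seen. All sentences here give limma's adjusted p over all probe sets.

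Fasn, fatty acid synthase, had 1683, 1941 and 1663 in EAMG EOM and 184, 203 and 109 in EAMG EDL, while control EOM had 927, 652 and 553 and control EDL 345, 441 and 278. The difference between the contrasts was 2.47 (adjusted p = 0.0435). Klk1, tissue kallikrein, had 17564, 11641 and 14238 in EAMG EOM and 165, 164 and 160 in EAMG EDL. In control rats it averaged 3053 ± 349 in EOM and 144 ± 39.1 in EDL (SD, n = 3 each), and the contrasts differed by 2.03 (adjusted p = 0.0208).

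Cdkn1a, an inhibitor of the cell cycle, was higher in EOM of both kinds of rat, by log2 1.69 in EAMG arrays and 3.51 in control arrays, a difference of -1.82 (adjusted p = 0.0205). Its EDL signal averaged 2111 ± 116 in EAMG rats and 355 ± 72.9 in control rats (SD, n = 3 each). Dipk2a, a secreted protein, was higher in EOM by log2 2.66 in EAMG arrays and 1.45 in control arrays, a difference of 1.21 (adjusted p = 0.0205).

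Akip1, which binds protein kinase A, differed between the muscles by log2 1.53 in EAMG arrays and -0.01 in control arrays, a difference of 1.54 (adjusted p = 0.0205). Smtnl1, a smoothelin-like protein of muscle, differed by log2 -1.36 in EAMG arrays and 0.03 in control arrays, a difference of -1.39 (adjusted p = 0.0435). EAMG EOM had 4881, 4931 and 4429 and EAMG EDL 10233, 15667 and 11291.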

How the results depend on the processing

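In control arrays 2708 probe sets were higher and 2367 lower in EOM, and in EAMG arrays 2319 and 1833. With no signal minimum the counts were 1711 and 1152 in control arrays and 1047 and 459 in EAMG arrays, where more probe sets shared the adjustment. By the rule that at least 7 of 9 ratios between arrays reach 2-fold, 680 were higher and 450 lower in control arrays. Leaving out 1 array gave 1947 to 3051 higher and 1752 to 2669 lower in control arrays, and 1684 to 2193 higher and 1209 to 1675 lower in EAMG arrays. Quantile normalization gave 2473 and 2561, and equal median signals 1883 and 3325. With the array number as a replicate block, 2561 were higher and 2247 lower in control arrays, 1865 and 1355 in EAMG arrays, and 89.93% of the control calls passed again. Deviations of same-numbered arrays correlated at 0.152, 0.0314 and 0.148, and those of arrays with different numbers at -0.188 to 0.0138. This is a hint of pairing from the data, but 1 same-numbered pair is near 0 and the labels do not tie a number to an experiment, so the arrays were not treated as pairs. The cause of the moved counts was not tested. The 3′ to 5′ ratio was 0.0596 higher in EOM for GAPDH but differed by -0.155 for beta-actin (exact permutation p = 0.4 and 0.7). Of 152 named genes that passed, 107 passed under every alternative in which they were tested, and 22 did not pass without some single array. A gene below a stricter minimum was left out of that setting and not counted as lost. The fold rule on pairs of arrays was not applied to single genes. Directions turned for genes that had not passed, or passed narrowly. After quantile normalization Tnnt3 stood at 0.0139, Cd59b at 0.07 and Atp2a1 at 0.0059. With equal medians Smtnl1 stood at -0.1394. Leaving out 1 array gave -0.0807 to 0.0996 for Dok7, -0.0535 to 0.0526 for Akip1 and -0.0451 to 0.1059 for Smtnl1.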

Other observations

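Of 14 tested regulators of mitochondrial content, 4 were higher and 1 was lower in EOM, with a median log2 of -0.05. This share is close to the 26.9% higher among all genes tested. Esrrg, a nuclear receptor of oxidative fibres, had 2330, 2848 and 3164 in EOM and 1108, 1402 and 1534 in EDL (log2 1.05, limma adjusted p = 0.00311). Ppargc1a, the coactivator that drives mitochondrial genes, had 1840, 1835 and 2056 in EOM and 1212, 1305 and 1179 in EDL (log2 0.63). Tfam, which maintains mitochondrial DNA, was the lower one, with 1478, 1545 and 1644 in EOM and 2036, 2211 and 2097 in EDL (log2 -0.44).

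Of 7 tested smooth muscle markers, 2 were higher and 3 lower, and 2 of the lower ones, Des and Synpo2, are also genes of skeletal fibres. Scx, a transcription factor of tendon, had 616, 613 and 512 in EOM and 1061, 870 and 1119 in EDL (log2 -0.81, limma adjusted p = 0.00371), and none of 4 tested adipocyte markers passed. Aqp4, the water channel of fast fibres and of central glia, had 6309, 5809 and 5442 in EOM and 9800, 9758 and 8601 in EDL (log2 -0.68). The only tested marker of cornea and lens, Aldh3a1, was higher (log2 0.88), and the only tested marker of melanocytes, Mitf, was lower (log2 -0.33).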
